A study of Mus musculus with 3 samples.

Results

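RAW macrophages that had met *L. plantarum* CRL1506 before an LPS challenge were compared with RAW macrophages challenged with LPS alone. RAW cells are a mouse macrophage-like cell line kept in culture, so no donor or animal varies between samples. In the CRL1506 + LPS group the lactobacilli were present for 24 h at 50000000 cells/mL and were then washed away, and in the LPS group none were added. Both groups received LPS at 50 ng/mL, for 12 h by the design text and for 3 h by the sample descriptions, a difference that the sources used here do not settle. RNA of each group was hybridised to 1 one-colour (Cy3) SurePrint G3 Mouse GE array, and both arrays lay on the same slide. With 1 array in each group there was no replicate check, so no test was made and no p-value is given. No array of cells without LPS was analysed here, with or without CRL1506. A value says how LPS-challenged cells differed after CRL1506, and not how either group differed from resting cells. What CRL1506 did by itself and what it changed in the response to LPS cannot be told apart. The comparison covered 16305 of the 26840 genes that have a symbol on the array, namely those with a probe well above background on at least 1 of the 2 arrays.

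LPS is a glycolipid of the outer membrane of Gram-negative bacteria, and macrophages sense it through Toll-like receptor 4 (TLR4), which works with the co-receptors CD14 and MD-2 (*Ly96*). The receptor signals through MyD88 to NF-kappaB and MAP kinases, which switch on cytokine and chemokine genes, and through TRIF to IRF3, which switches on interferon-beta. Secreted interferon-beta then acts back on the cells through its receptor and a complex of STAT proteins and IRF9, which binds a DNA element called ISRE and switches on antiviral genes.

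Levels are given here as relative signal, the processed signal of a probe divided by the 75th percentile of all gene spots on its array, which was 743.1 for LPS and 697.9 for CRL1506 + LPS. Ratios are log2 of CRL1506 + LPS over LPS, and a gene was counted as higher or lower from 2-fold. Where the signal on 1 array was not well above background, the ratio is a lower bound, taken against the lowest signal well above background on that array (0.0448 for LPS and 0.0474 for CRL1506 + LPS in relative signal) or the probe's own signal if that was higher. The error within a pair of arrays was small, with a median SD of the log2 ratio of 0.043 over the spots of 281 probes that are spotted several times. Different probes of a gene spread more, with a median SD of 0.216 over 6125 genes. Neither value covers variation between cultures.

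Before the results, 1 feature of the arrays has to be stated. Some spots were uneven, with a mean pixel signal over 0.2 above the median pixel signal on the log2 scale, and they lay in patches. Spots that were uneven or had at least 5 uneven spots among their 20 nearest made up 5.50% of gene spots for LPS and 3.73% for CRL1506 + LPS. Of the genes that were lower in CRL1506 + LPS, 52.2% had such a spot on the LPS array, against 6.45% of all genes compared. Of the genes that were higher, 25.2% had such a spot on the CRL1506 + LPS array, against 4.13%. The counts below are therefore given with and without these spots, and genes whose value rests on one are named as such.

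Across all genes, 923 were at least 2-fold higher in CRL1506 + LPS (5.66% of those compared) and 575 at least 2-fold lower (3.53%), which together made 9.19%. With uneven spots left out, 15142 genes could be compared, and 698 were higher (4.61%) and 278 lower (1.84%). Lower bounds made up 331 of the 923 and 273 of the 575. Most genes moved little, since 79.2% lay within 1.5-fold and the median size of the log2 ratio was 0.26. The median log2 ratio of all genes was -0.06 and 42.7% of genes lay above 0, so a gene list is read below against these 2 values. Counts of list members past 2-fold are likewise to be read against 5.66% higher and 3.53% lower. Those 2 shares pool all kinds of transcript, and over protein-coding genes alone they were 4.0% and 3.14%. Among protein-coding genes well above background on both arrays they were 2.83% and 2.02%. The split between higher and lower depended on the scaling, with 61.6% of the changed genes on the higher side at the scaling used, 43.5% when arrays were set to their medians, 52.9% when they were set to the spike-in probes and 51.6% after quantile normalization. Of the higher genes 337, and of the lower genes 235, were past 2-fold under each of the 7 other normalizations. Where a named gene was not, or its fold shrank by over 1.5 times, its log2 ratio closest to 0 among these normalizations is given as its weakest value.

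**Figure D1:**
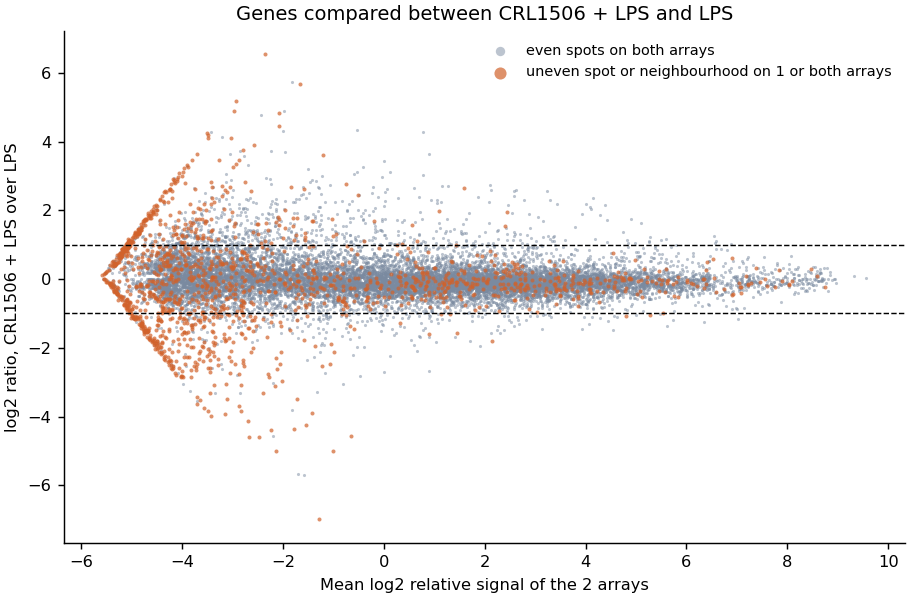
Each point is 1 of the 16305 genes compared, with the mean log2 relative signal of both arrays on the x axis and the log2 ratio of CRL1506 + LPS over LPS on the y axis; dashed lines mark 2-fold. Genes with uneven spots (orange) are crowded among dim genes, many of them below the lower line, while bright genes lie close to 0, and genes whose ratio is a lower bound form the straight edges on the left.

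Many genes of the interferon response were higher by small steps. Of 52 interferon-stimulated antiviral effectors on the array, all of which could be compared, 50 lay above 0, 11 were past 2-fold on the higher side and none on the lower, against 5.66% higher and 3.53% lower over all genes. Their median log2 ratio was 0.56, against -0.06 for all genes, and the distance to the median of all genes lay between 0.61 and 0.75 over the other normalizations. Only 1 of the 52 had an uneven spot, and without it the counts were 11 and 0 of 51. Before the values, the promoters of 4 of the 11 genes are shown, since these genes moved together and their family is known for the ISRE. The core, which is GAAA, any 2 bases and GAAA again, searched on both strands from 250 bases before to 50 bases after the RefSeq start, was found in 19 of the 40 list members with a promoter in the table (47.5%), against 468 of the 11985 compared genes with one (3.90%). It was found in 7 of 9 members that were at least 2-fold higher and in 12 of 31 that were not. The 7 count *Ifit3* and *Ifit3b*, whose stretches are identical, as separate genes. Over all genes at least 2-fold higher it was found in 34 of 533 with a promoter (6.38%). The list was chosen as interferon-stimulated genes, so a high share of the core in it says nothing about CRL1506. Such a match is a description of the letters and no proof of a binding site, and overlapping matches were both counted.

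The 4 stretches are of 120 bases, lie upstream of the start site on GRCm38.p6 and read 5′ to 3′ along the gene, with the core or its reverse complement in capitals. They are chr8:61927967-61928086 on the plus strand for *Ddx60*, chr5:120887614-120887733 on the minus strand for *Oas1g*, chr19:34583352-34583471 on the plus strand for *Ifit3* and chr12:26456508-26456627 on the minus strand for *Rsad2*. The match nearest to the start site ended 10 bases before it in *Ddx60* and 3 bases before it in *Oas1g*, where 2 matches overlap, but 113 bases before it in *Ifit3* and 111 in *Rsad2*, both with their matches on the opposite strand.
Ddx60: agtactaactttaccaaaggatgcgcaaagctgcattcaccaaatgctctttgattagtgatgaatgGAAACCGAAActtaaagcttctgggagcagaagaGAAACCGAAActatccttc
Oas1g: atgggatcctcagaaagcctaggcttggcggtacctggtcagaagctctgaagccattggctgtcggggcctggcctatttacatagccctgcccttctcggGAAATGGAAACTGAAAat
Ifit3: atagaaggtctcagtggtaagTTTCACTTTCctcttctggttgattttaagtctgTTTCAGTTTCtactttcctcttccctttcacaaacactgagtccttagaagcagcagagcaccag
Rsad2: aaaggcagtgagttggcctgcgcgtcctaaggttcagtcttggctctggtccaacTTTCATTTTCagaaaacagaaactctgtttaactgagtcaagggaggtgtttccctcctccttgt

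Among the antiviral effectors, *Ddx60*, a helicase that aids RNA sensing, rose 3.41-fold, from a relative signal of 0.342 with LPS to 1.16 with CRL1506 + LPS. *Oas2*, which makes the 2′-5′ oligoadenylate that activates RNase L, rose 2.85-fold, from 8.15 to 23.2. The other probe of each of these genes gave a similar ratio, with log2 values of 1.48 for *Ddx60* and 1.52 for *Oas2*. *Ifit3*, which binds foreign RNA together with other IFIT proteins, rose 2.39-fold from 6.13 to 14.7, and *Ifit3b*, whose promoter stretch is identical to that of *Ifit3*, went from 1.69 to 3.52. These 2 genes are near-identical copies, so their signals cannot be fully separated. *Rsad2* (viperin), which makes an antiviral nucleotide, rose 2.15-fold from 65.7 to 142, and *Mx1*, a GTPase that blocks viral nucleoproteins, rose 2.12-fold from 14.8 to 31.4. The other 5 genes past 2-fold were *Oasl2* (log2 ratio 1.25), *Trim30a* (1.17), *Cmpk2* (1.15), *Bst2* (1.08) and *Oas1g* (1.05). Of the 11, *Ddx60*, *Oas2*, *Ifit3* and *Oasl2* were past 2-fold under every normalization, and the weakest values of the rest lay between 0.85 (*Oas1g*) and 0.97 (*Trim30a*).

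Below 2-fold the same list went on without a gap. *Isg15*, a ubiquitin-like modifier, went from a relative signal of 113 to 165 (log2 ratio 0.54), *Ifit1* from 19.4 to 30.1 (0.63), *Usp18*, the protease that removes ISG15, from 26.9 to 41.8 (0.63) and *Eif2ak2*, the RNA-activated kinase PKR, from 14.3 to 18.4 (0.37). Most members thus lay between 1-fold and 2-fold, and the number past 2-fold ranged from 4 to 16 over the other normalizations although the direction of the list did not turn. The members below 0 were *Ifitm3* (-0.06) and *Ifi27* (-0.78, and -1.04 at its other probe).

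The upstream ligand was measured as well. *Ifnb1*, the interferon-beta that LPS induces through TRIF, rose 4.97-fold from 3.06 to 15.2, and *Ifna2* rose 2.17-fold from a dim 0.0661 to 0.143 (weakest 0.44). *Ifnar1*, a chain of the receptor for both, read 2.5 and 6.47 at its brightest probe (2.59-fold), but its other probes gave log2 ratios between -0.43 and 0.93, so that no single value holds for the gene. The partner chain *Ifnar2* had a log2 ratio of 0 after rounding, and *Ifngr1* and *Ifngr2*, the receptor of interferon-gamma, both had -0.47. Of the 16 interferon and receptor genes compared, 3 were higher and none lower, and *Ifng* itself was not well above background on either array.

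Other interferon-induced families showed a similar shift. Of 21 guanylate-binding proteins and immunity-related GTPases, which attack the vacuoles of intracellular microbes, 4 were at least 2-fold higher, none lower, and 18 lay above 0, with a median log2 ratio of 0.52. *F830016B08Rik* rose 3.77-fold from 3.00 to 11.3, and *Gbp6* rose 2.23-fold from 0.504 to 1.12. *Gbp7* had a log2 ratio of 1.09, and *9930111J21Rik2* had 1.43 at its brightest probe but 0.09 at the other. The weakest values of *Gbp6* and *Gbp7* were 0.95 and 0.89. *Gbp2* (-0.31) and *Tgtp2* (-0.81) lay on the other side. In their promoters the ISRE core was found in 10 of 12 (83.3%), again in a list of genes known to be interferon-induced. The 7 Schlafen genes compared had a median of 0.42 and none past 2-fold. Of 17 cytosolic RNA and DNA sensors only *Ifi209* was past 2-fold (1.15, weakest 0.95), with a list median of 0.41 and log2 ratios of 0.61 for *Ifih1* (MDA5), 0.43 for *Ddx58* (RIG-I) and 0.06 for *Mb21d1* (cGAS). In the list of MHC class I presentation, *H2-T24* rose 3.58-fold from 0.386 to 1.38 and *Nlrc5*, the transactivator of class I genes, rose 2.53-fold from 1.88 to 4.75, while the classical genes *H2-K1* (0.02), *H2-D1* (0.03) and *B2m* (0.05) lay near 0. The list of interferon regulatory factors, STATs and Janus kinases was mixed, with none of 22 genes past 2-fold and a median of -0.19. Within that list *Irf7*, itself an interferon target, had 0.87 and *Stat2* 0.53, while *Irf9* had -0.16, *Irf1* -0.51 and *Irf5* -0.86.

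**Figure D2:**
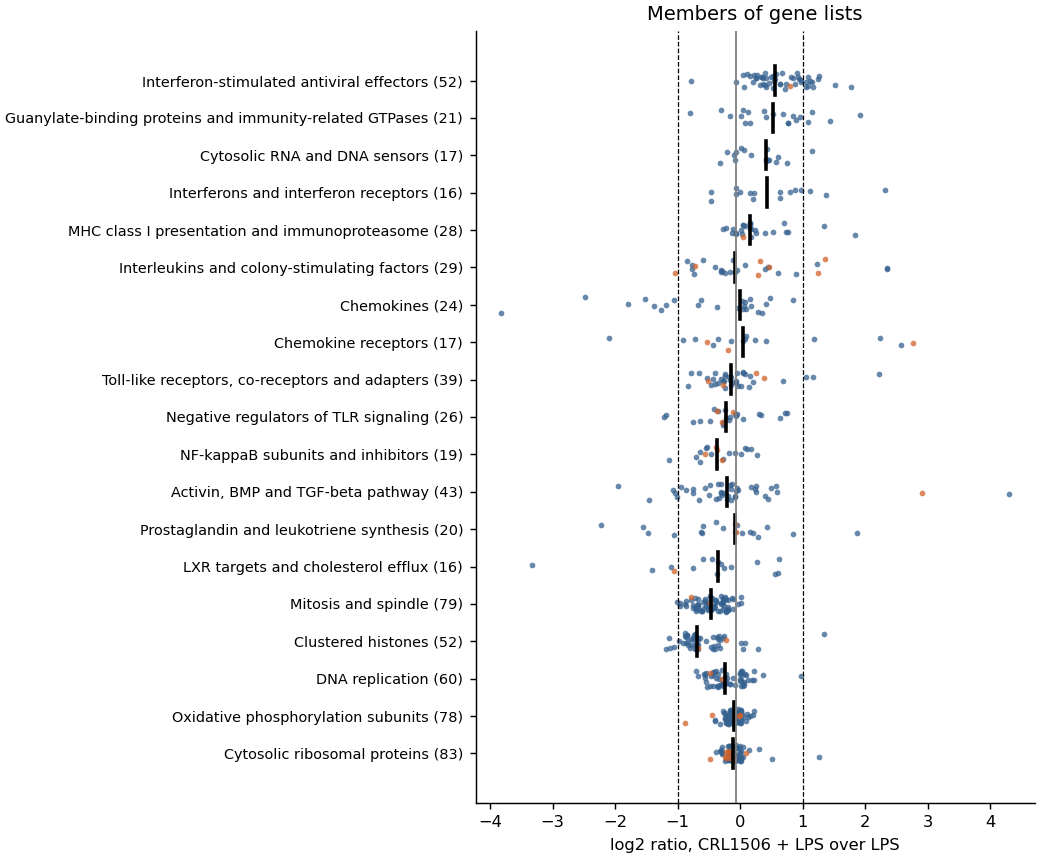
Each point is the log2 ratio of CRL1506 + LPS over LPS of 1 member of a gene list (number of members compared in brackets, uneven spots in orange); the black bar is the list median, the grey line the median of all genes at -0.06 and the dashed lines 2-fold. The first 4 interferon lists lie to the right with medians from 0.41 to 0.56, mitosis and histones lie to the left with medians of -0.46 and -0.69, and in the chemokine list a tail of 8 members lies beyond 2-fold on the left.

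Cytokine genes moved one by one and not as a group. Of 29 interleukins and colony-stimulating factors compared, 5 were higher and 1 lower, against 5.66% and 3.53% over all genes. The list median was -0.08. *Il6*, a main inflammatory and acute-phase cytokine, rose 5.10-fold from a relative signal of 7.87 to 40.1, and its other probe gave a log2 ratio of 2.19. *Csf3* (G-CSF), which drives the making of neutrophils, rose 5.09-fold from 0.151 to 0.769. *Il19*, of the IL-10 family, rose 2.34-fold from 0.101 to 0.237 at its brightest probe, with 0.59 at the other and a weakest value of 0.56. The remaining 2 higher genes, *Il2* and *Il33*, were bounds of 1.36 and 1.25 with uneven spots (weakest 0.02 and 0.17). *Il1b*, the main product of the inflammasome, was the only one lower, from 55.9 to 27.2 (-1.04). Its brightest spot lay in an uneven patch, but its other probes gave -1.28 to -1.05. The weakest value of the brightest probe was -0.90. Several cytokines of wide interest stayed within 2-fold: *Tnf* read 136 and 104 (-0.39), *Il10* 0.24 and 0.228 (-0.08), *Il12b* 0.507 and 0.282 (-0.85), *Il1a* 0.68 and 0.57 (-0.25), *Il27* 0.465 and 0.45 (-0.05), *Csf1* 19.1 and 11.2 (-0.77) and *Il1rn*, the IL-1 receptor antagonist, 5.64 and 10.6 (0.90). *Il12a* and *Il9* were not well above background on either array.

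Of 27 interleukin and colony-stimulating factor receptors, *Il7r* (1.24) and *Il27ra* (1.07, weakest 0.27) were higher, and *Il10ra*, the ligand-binding chain of the IL-10 receptor, fell from 14.6 to 6.83 (-1.09, and -1.25 at its other probe, weakest -0.99). *Il1rl1*, the IL-33 receptor, had -1.21, and *Il18rap* a bound of -1.54 (weakest -0.64). The decoy receptor *Il1r2* read 1.49 and 0.0785 at an uneven spot (-4.25), and its log2 ratio was 0.73 with uneven spots left out, so that no direction holds for it. In the TNF superfamily 1 of 25 genes passed 2-fold, *Tnfrsf9* (4-1BB), which fell 3.78-fold from 2.95 to 0.78 with -2.02 at its other probe.

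Chemokines past 2-fold were all on the lower side, although 12 of the 24 compared lay above 0. Of 24 compared, 8 were lower by 2-fold or more and none was higher by as much, against 3.53% and 5.66% over all genes, and the counts were the same with uneven spots left out. The 8 were *Ccl24*, *Ppbp*, *Cxcl1*, *Cx3cl1*, *Ccl20*, *Cxcl9*, *Ccl17* and *Cxcl16*, and over the other normalizations between 4 and 8 members were past 2-fold. *Ccl24* (eotaxin-2), which draws eosinophils and is linked to alternatively activated macrophages, fell 14.2-fold from a relative signal of 1.07 to 0.0755, and its probe lies at chr5:136046485-136046544 (mm9). Its weakest log2 ratio was -2.80. *Ccl20*, the ligand of CCR6, fell 2.60-fold from 2.12 to 0.815. *Cxcl16*, a membrane-bound ligand that also takes up oxidised lipoprotein, fell 2.06-fold from 13.9 to 6.73. The neutrophil attractant *Cxcl1* fell from 0.199 to 0.0574 (-1.80), *Cxcl9*, an interferon-gamma target, from 0.316 to 0.131 (-1.27), and *Ccl17*, a ligand of CCR4, from 0.172 to 0.0755 (-1.19). *Ppbp* was at least 5.56-fold lower and *Cx3cl1* (fractalkine) at least 2.86-fold lower, both dim on the CRL1506 + LPS array. The call of *Cx3cl1* was lost after normexp (-0.63), in the deposited table (-0.67) and as the mean over its probes (-0.45). Weakest values under 2-fold were also found for *Cxcl1* and *Cxcl9* (both -0.86), *Ccl17* (-0.62) and *Cxcl16* (-0.94), and that of *Ppbp* was -1.33. Apart from *Cxcl16* and *Ccl20*, all of the 8 were near or below the 75th percentile of the LPS array.

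The brightest chemokine probes hardly moved. *Ccl2* (MCP-1) read 421 and 411 (log2 ratio -0.03), *Ccl4* 362 and 402 (0.15), *Ccl3* 206 and 216 (0.07), *Ccl5* 196 and 220 (0.17), *Cxcl10* 240 and 245 (0.03), *Cxcl11* 237 and 288 (0.28) and *Cxcl2* 22.8 and 17.6 (-0.37). The highest ratio of the list was that of *Ccl7*, from 83.6 to 149 (0.84). The list median was therefore 0 after rounding, close to that of all genes, and from -0.20 to 0.11 over the other normalizations. *Cxcl10* and *Cxcl11*, both interferon-induced, had other probes at 0.75 and 0.76. In the promoters the NF-kappaB motif, searched by its 10-letter consensus on both strands, was found in 5 of 17 chemokines (29.4%), against 5.95% of compared genes.

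Of 17 chemoattractant receptors compared, 4 were higher and 1 lower, against 5.66% and 3.53% of all genes, and without uneven spots the counts were 3 and 1 of 14. *Fpr2*, a receptor for bacterial formyl peptides, rose 5.95-fold from 3.86 to 23 with 2.51 at its other probe, and *Fpr1*, its high-affinity relative, rose 4.71-fold from 1.01 to 4.78. *Cxcr6*, the receptor of CXCL16, rose from a dim 0.0528 to 0.119 (1.18, weakest 0.42). *Ackr4* went from 0.228 to 1.56 (2.77) at an uneven spot. *Cx3cr1*, the fractalkine receptor of monocytes and resident macrophages, fell 4.30-fold from 3.27 to 0.761, with -2.19 at its other probe. *Ccr2* (0.41) and *C5ar1* (-0.15) stayed within 2-fold.

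**Figure D3:**
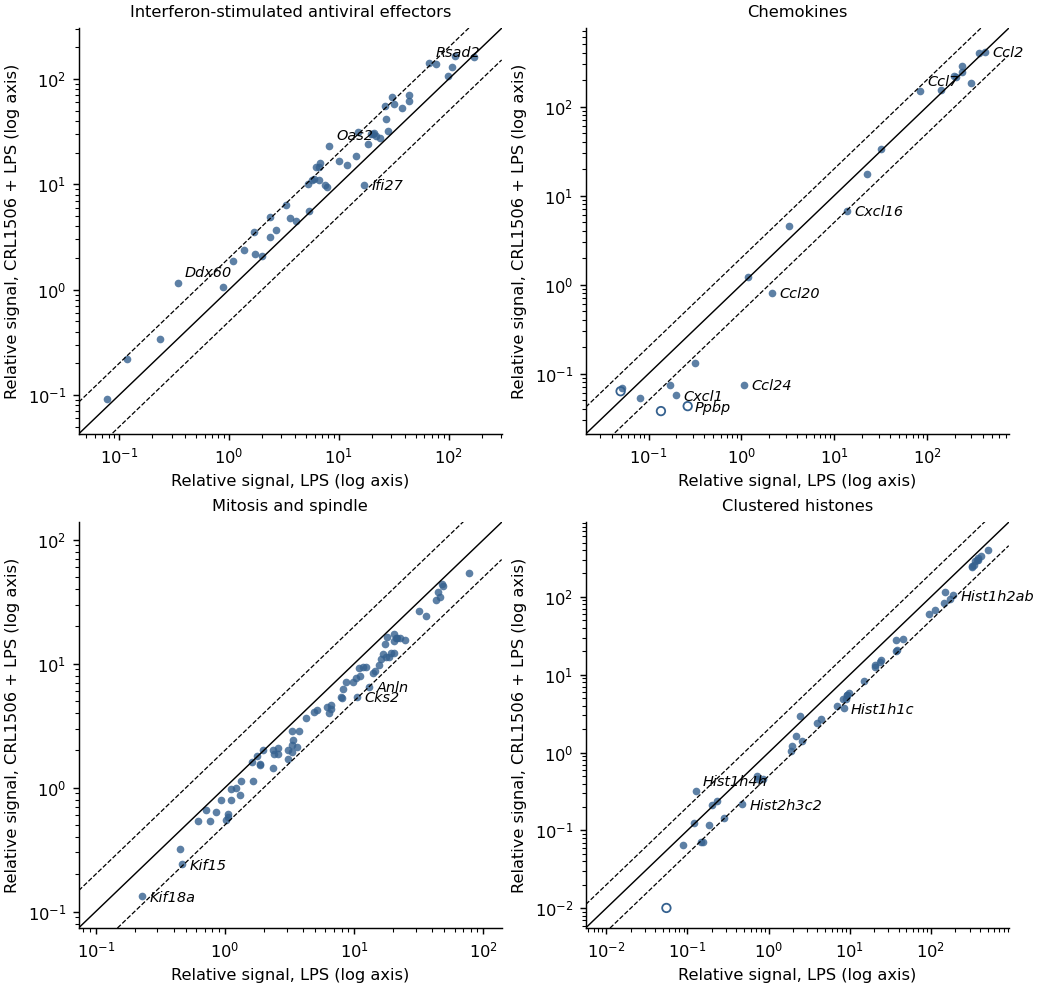
Relative signal with LPS (x axis) and with CRL1506 + LPS (y axis), both on log axes, for the members of 4 lists; the solid line is equality, dashed lines are 2-fold and open circles are genes not well above background on 1 array. The antiviral effectors lie above the line at every level apart from *Ifi27* and *Ifitm3*, 77 of 79 mitosis and 47 of 52 histone genes lie below it, and the chemokines past 2-fold are among the dimmer ones while *Ccl2* and other bright chemokines lie on the line.

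The TLR4 pathway itself was described by 3 lists. Of 39 Toll-like receptors, co-receptors and adapters, 3 were higher and none lower, with a median of -0.15. *Cd180* (RP105), a receptor relative that restrains TLR4, rose 4.65-fold from 0.966 to 4.49 at its brightest probe, with 0.60 to 1.91 at the others. *Tlr3*, which senses double-stranded RNA and is an interferon target, rose from 0.448 to 1.01 (1.17, weakest 0.97), with 0.42 at the other probe. *Ly96* went from 3.11 to 6.42 (1.05, weakest 0.85) at its brightest probe but had -0.21 at the other. *Tlr4* read 5.00 and 2.81 (-0.83) with 0.06 to 0.48 at its other probes, *Tlr2* 104 and 60.1 (-0.79), *Cd14* 89.4 and 73.9 (-0.27), *Myd88* 19.4 and 15.1 (-0.36) and *Ticam1*, which encodes TRIF, 1.68 and 1.73 (0.05).

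Of 26 negative regulators of TLR signaling, 2 were lower and none higher. *Zc3h12a* (regnase-1), an RNase that degrades *Il6* mRNA, fell from 3.69 to 1.63 (-1.18), with -0.49 at its other probe, and *Il1rl1* is given above. *Irak3* (IRAK-M) read 3.17 and 5.33 (0.75), *Dusp1* 6.74 and 11.1 (0.72), *Socs1* 3.47 and 4.29 (0.30), *Socs3* 40.1 and 28.6 (-0.49), *Tnfaip3* (A20) 13.2 and 10.8 (-0.29) and *Nfkbia* 163 and 154 (-0.08). Of 19 NF-kappaB subunits and inhibitors, *Bcl3*, an atypical inhibitor that binds p50, was the only one past 2-fold. It fell from 28.9 to 13.2 (-1.13) at its brightest probe, but had -0.46 as the mean over its probes. The median of the 19 genes was -0.37 and 14 lay below 0, and the median was -0.18 with uneven spots left out. *Relb* (-0.70) and *Nfkb2* (-0.64) of the non-canonical branch were lower than *Rela* (-0.28). In the SOCS family *Cish*, a feedback inhibitor of STAT5, fell from 1.58 to 0.625 (-1.33), and *Socs2* was a bound of 2.60 that rested on an uneven spot (weakest 0.88). None of 38 MAP kinases and dual-specificity phosphatases passed 2-fold. Of 38 AP-1, ATF and immediate-early factors, only *Egr1* did, with a 2.73-fold rise from 1.58 to 4.31. Of 19 proteins of cytokine mRNA decay, *Zfp36l1* fell 3.00-fold from 8.56 to 2.85, but its other probe gave -0.29.

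Genes of the activin, BMP and TGF-beta pathway moved unevenly. *Inhba*, which encodes the subunit of activin A, rose 19.7-fold, from a dim 0.0563 with LPS to 1.11 with CRL1506 + LPS, at a probe at chr13:16118634-16118693 (mm9). Other normalizations gave log2 ratios of 2.79 to 4.37 for it. Most of the list lay on the other side. Of 43 genes 2 were at least 2-fold higher and 5 lower, against 5.66% and 3.53% over all genes. Below 0 lay 32 and above it 11, and the median was -0.21. Over all genes 42.7% lay above 0 and the median was -0.06. *Id1* fell 3.89-fold from 7.34 to 1.89 and *Id3* fell 2.73-fold from 25.1 to 9.18, and both are inhibitors of helix-loop-helix factors and known targets of BMP signaling. *Smad6*, an inhibitory SMAD that BMP signaling induces, fell from 0.417 to 0.207 (-1.01, weakest -0.74). *Tgfbr2*, the type II TGF-beta receptor, fell from 7.94 to 3.77 (-1.08, weakest -0.98), and the ligand *Tgfb3* from 0.894 to 0.433 (-1.04, weakest -0.89). *Tgfb1* read 5.10 and 4.11 (-0.31). *Gdf11* was a bound of 2.90 at an uneven spot (weakest 1.81).

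Of 20 genes of prostaglandin and leukotriene synthesis, 4 were lower and 1 higher, against 3.53% and 5.66% over all genes. The list median was -0.08, near the -0.06 of all genes. *Alox5*, the 5-lipoxygenase that starts leukotriene synthesis, fell 4.71-fold from 2.37 to 0.504. *Tbxas1*, thromboxane synthase, fell 2.93-fold from 0.777 to 0.265, *Ptger4*, the EP4 receptor of prostaglandin E2, fell 2.80-fold from 8.68 to 3.1 with a log2 ratio of -1.49 at its other probe, and *Ptgs1* (COX-1) fell from 12.9 to 6.23 (-1.05, weakest -0.91). *Hpgds*, which makes prostaglandin D2, read a dim 0.0556 and 0.203 (3.65-fold), but was under 2-fold after normexp (0.95) and in the deposited table (0.84). The inducible *Ptgs2* (COX-2) read 10.4 and 7.89 (-0.39) and *Ptges* 22.2 and 24.7 (0.16). Of 16 LXR targets and cholesterol efflux genes, 4 were lower and none higher, namely *Pltp*, the phospholipid transfer protein, at least 9.96-fold (from 0.473, weakest log2 ratio -2.09), *Ch25h*, which makes 25-hydroxycholesterol, 2.66-fold (from 0.440 to 0.166), *Lpl* (-1.11, weakest -0.96, and -1.03 to 1.39 at its other probes) and *Abca9*, whose bound of -1.06 rested on an uneven spot (weakest -0.47). *Abca1* (-0.26) and *Abcg1* (-0.14), the main cholesterol exporters of macrophages, stayed within 2-fold.

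Surface molecules for T cells went both ways. Of 25 costimulatory and checkpoint molecules, *Slamf7* rose 4.24-fold from 0.102 to 0.432 (weakest log2 ratio 1.34) and *Cd274* (PD-L1) rose 2.78-fold from 3.22 to 8.95. *Cd83*, a marker of matured antigen-presenting cells, fell 8.26-fold from 1.63 to 0.197, *Icosl*, the ligand of ICOS, fell from 0.956 to 0.383 (-1.32) and *Havcr2* (TIM-3) from 0.62 to 0.301 (-1.04, weakest -0.86). *Cd86* read 5.53 and 10.4 (0.92), *Cd80* 1.38 and 1.58 (0.20) and *Cd40* 8.82 and 9.75 (0.15). Of 14 genes of MHC class II presentation none passed 2-fold. Among Fc receptors and ITAM signaling, *Siglec1* (CD169), an interferon target, rose 3.18-fold from 0.865 to 2.75 and *Cd300lf* 3.87-fold from 0.837 to 3.23 (0.45 at its other probe), and *Fcrls* was at least 7.39-fold higher (weakest 1.45). *Fgr*, a kinase of the SRC family, fell 2.98-fold from 0.227 to 0.0763 (weakest -0.80), *Fcgr3*, the low-affinity IgG receptor, fell from 26.4 to 10.7 (-1.30, and -0.64 at its other probe), and *Fcgrt* had -1.01 (weakest -0.95).

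Proteases and their inhibitors also went both ways, with 4 higher and 4 lower of 30, against 5.66% and 3.53% over all genes. The list median was -0.10, near the -0.06 of all genes. *Mmp8*, a collagenase, rose 3.86-fold from 0.0759 to 0.293 (weakest 0.93). *Serpinf1* (PEDF) fell 3.20-fold from 1.27 to 0.397 and *Mmp10* fell 2.74-fold from 0.451 to 0.165. *Thbd* (1.24, weakest 0.58) and *Serpinb2* (1.19, weakest 0.70) were also higher, and *Mmp27* (1.21, weakest 0.62) and *Mmp15* (-1.47, uneven, weakest -0.62) were bounds. *Ctsk*, the collagen-degrading cathepsin of osteoclasts, rose 5.01-fold from 0.101 to 0.508 (weakest 1.43), while *Dcstamp* fell 3.44-fold from 0.323 to 0.0938 (weakest -1.14) and *Car2* 3.21-fold from 3.31 to 1.03, so the osteoclast list held changes in both directions (1 higher and 2 lower of 20). Of the adhesion molecules, *Icam1*, the ligand of LFA-1, fell from 63.6 to 31.1 (-1.03, and -1.57 at its other probe, weakest -0.88), and *Epcam* had -1.39 (weakest -0.78). *Itga4* and *Itga6* had -1.30 and 1.11 at their brightest probes, and their other probes reached 1.26 and -1.09, so that neither has a settled direction. In the list of iron, zinc and copper handling *Lcn2* (lipocalin-2), which withholds iron from bacteria by binding their siderophores, rose 3.12-fold from 19.3 to 60.2. *Cp* (ceruloplasmin) rose 5.24-fold from 0.400 to 2.10 at its brightest probe, with 0.21 to 1.96 at the others. *Trf* (transferrin) fell 2.34-fold from 33.5 to 14.3 with a log2 ratio of -1.23 at both probes. In purinergic and cAMP signaling 2 genes were at least 2-fold higher and 3 lower of 39, with a list median of -0.25. There *Adora2b*, the low-affinity adenosine receptor, fell 4.30-fold from 0.859 to 0.2, and *Gpr84*, a receptor for medium-chain fatty acids that LPS induces, fell 2.59-fold from 78.6 to 30.4.

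Genes of cell division were lower as a group by small steps. Of 79 mitosis and spindle genes 77 lay below 0 and their median log2 ratio was -0.46, against a median of -0.06 and 42.7% above 0 over all genes, yet only *Anln* passed 2-fold (-1.01, and -0.26 at its other probe, weakest -0.91). The distance of this median to that of all genes lay between -0.40 and -0.32 over the other normalizations. *Cdk1*, the kinase that starts mitosis, read 3.29 and 1.94 (-0.76), *Aurkb* 2.36 and 1.44 (-0.71), *Plk1* 19.2 and 12.1 (-0.67), *Ccnb1* 11.1 and 8.03 (-0.46), *Top2a* 20.5 and 15.2 (-0.43) and *Mki67* 44.8 and 37.6 (-0.26). The clustered histone genes, which are used while DNA is copied, went further. Of 52 compared, 47 lay below 0 and the median was -0.69, with 4 at least 2-fold lower and 1 higher. *Hist1h1c*, a linker histone, fell 2.26-fold from 8.40 to 3.71, *Hist2h2ab* had -1.14, *Hist2h3c2* -1.12 and *Hist2h3c1* -1.06, while *Hist1h4h* rose 2.54-fold from 0.126 to 0.320. Apart from *Hist1h1c*, these histone genes were under 2-fold after normexp and in the deposited table. Histone genes are close relatives in sequence, so a probe may read more than 1 of them. Of 30 G1 cyclins and CDK inhibitors, *Cdkn2c* (p18, -1.29) and *Sesn1* (-1.26) were lower and the median was -0.45. The 60 DNA replication genes had none past 2-fold and a median of -0.24, with *Mcm2* at -0.43, *Pcna* at -0.23 and *Pola2* at 0.97.

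In bulk RNA a change in the share of dividing cells and a change in RNA per cell cannot be told apart. The markers that define macrophages were all compared, 12 of 12, and 11 were well above background on both arrays. Past 2-fold, 1 was higher (*Adgre1*, from 6.11 to 12.3, log2 ratio 1.0, weakest 0.80) and 1 lower (*Fcgr3*). As a group they leaned lower, with 9 below 0 and 3 above it. Their median log2 ratio was -0.34, against -0.06 for all genes, and it was -0.43 with uneven spots left out. The summed relative signal of these markers was 795 with LPS and 627 with CRL1506 + LPS. *Csf1r*, the receptor for M-CSF, read 162 and 88.4 (-0.87), *Lyz2* 338 and 283 (-0.25) and *Cd68* 78.9 and 80.8 (0.03). Of the markers of other cell types, 12 of 19 for T and NK cells were compared with none past 2-fold (summed signal 17.6 and 16.9), and *Cd8a*, *Nkg7* and *Gzma* were not well above background on either array. For B and plasma cells 8 of 14 were compared, 2 higher and 1 lower (1.06 and 1.28), with *Cd79a* not well above background. For neutrophils and mast cells 7 of 17 were compared, with 1 higher (3.42 and 3.77) and *S100a9* not well above background. For fibroblasts and endothelium 9 of 16 were compared and 5 were higher (5.05 and 13.8), of which *Dcn*, *Col1a1* and *Tie1* were bounds at uneven spots. *Fn1*, which macrophages make as well, read 4.45 and 12.5 (1.49) and carried most of that sum, *Vwf* had 1.08 (weakest 0.71), and *Col3a1*, *Pdgfra* and *Tek* were not well above background. For epithelium 2 of 15 and for the erythroid line 3 of 11 were compared. The part of these markers in the other results was not tested.

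Much of the basic machinery of the cell hardly differed, and 22 of the 66 pathway lists had no member past 2-fold. None of 78 subunits of oxidative phosphorylation, 78 mitochondrial ribosomal proteins, 55 translation factors, 45 proteasome subunits, 72 spliceosome proteins, 40 autophagy genes and 28 genes of the TCA cycle passed it, and their medians lay between -0.16 and -0.04. Medians this close to 0 moved with the scaling, and among these lists that of the spliceosome and that of the TCA cycle alone stayed below 0 under every normalization. Of 83 cytosolic ribosomal proteins *Rps4l* alone did (1.26, weakest 0.52), with a median of -0.12. Glycolysis and HIF targets (52 genes, median -0.19) and sterol synthesis (27 genes, median -0.21) had none. *Acod1*, which makes the antimicrobial metabolite itaconate and is among the brightest LPS-induced genes, read 240 and 269 (0.17), and *Nos2*, the inducible nitric oxide synthase, 4.74 and 2.92 (-0.70). Of 40 NRF2 targets and antioxidant enzymes, *Gsta4* was higher (1.79, weakest 0.59), and *Hmox1* had 0.26. Of 42 ER chaperones and unfolded protein response genes, *Derl3* was lower (-1.58).

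The single genes with the largest differences under the following conditions were of mixed kinds. They had even spots, signals well above background on both arrays, probes of 1 sign and a change past 2-fold under every normalization. By this rule 222 genes were higher and 101 lower, and a signal well above background can still be dim. *Sprr2d*, a small proline-rich protein of the cornified envelope, rose 29.7-fold from a dim 0.0464 to 1.38, and its neighbour *Sprr2e* rose 12.9-fold from 0.0713 to 0.921. Their probes lie at chr3:92144721-92144780 and chr3:92157288-92157347 (mm9). In the same family *Sprr2h* and *Sprr2g* were bounds of 2.93 and 2.33 (weakest 1.86 and 1.03), *Sprr2a3* was a bound of 1.5 at an uneven spot (weakest 0.71), and *Sprr2b* (0.36), *Sprr2k* (0.22) and the bright *Sprr2a2* (from 171 to 161, -0.08) stayed within 2-fold. These genes are near-copies of each other, so their signals may be shared in part. *Urah*, an enzyme of urate breakdown, rose 19.2-fold from 0.391 to 7.51, and *Tssk6*, a kinase known from the testis, rose 12.5-fold from 0.527 to 6.61. *Gsta3*, a glutathione transferase, rose 8.60-fold from 0.235 to 2.02 with a log2 ratio of 2.95 at its other probe. As the mean over its probes *Gsta3* had 2.07. The olfactory receptor *Olfr828* rose from 0.0582 to 0.763 (log2 ratio 3.71). The other 5 of the 12 largest rises were clones with RIKEN names, *4930438A08Rik* (20.2-fold, from 0.153 to 3.08), *A630081D01Rik* (10.7-fold), *6330407A03Rik* (9.59-fold), *A130078K24Rik* (9.23-fold) and *2310079F09Rik* (8.59-fold). The weakest log2 ratio was 3.41 for *Sprr2d*, 2.51 for *Sprr2e*, 2.79 for *Inhba*, 2.46 for *Olfr828*, 2.38 for *A130078K24Rik* and 3.63 for *4930438A08Rik*. *Olfr828* had 4 uneven spots among its 20 nearest on the CRL1506 + LPS array, just under the limit of 5.

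The largest falls after *Ccl24* were those of *Hrh4*, *Cd83*, *Cytip* and *Yap1*. *Hrh4*, the histamine H4 receptor, fell 9.78-fold from 1.24 to 0.127 at its brightest probe, but its other probe gave only -0.15, and its weakest value was -2.56. *Cytip*, which detaches LFA-1 from its partners, fell 8.09-fold from 0.623 to 0.0770 (weakest log2 ratio -1.95, and -1.77 as the mean over its probes). *Yap1*, the effector of Hippo signaling, fell 7.11-fold from 1.91 to 0.268. *Ctla2a*, an inhibitor of cathepsins, fell 6.68-fold from 1.16 to 0.173, and *Rnf224* fell 6.52-fold from 2.57 to 0.394. *Dmpk*, a kinase known from muscle, fell 6.38-fold from 4.72 to 0.741 (log2 ratio -1.74 as the mean over its probes). *Chst3*, a sulfotransferase, fell 5.06-fold from 0.778 to 0.154 (log2 ratio -1.11 as the mean over its probes). *Tcf7l2*, a factor of the Wnt pathway, fell 4.77-fold from 0.838 to 0.175, with -0.43 to -0.06 at its other probes. *Alox5* and *Adora2b*, described above, were also among the 12. The largest bounds with even spots were *Ankrd35* (at least 52.6-fold higher), *Ccdc68* (at least 27.4-fold), *4930512B01Rik* (at least 19.4-fold), *Gm12132* (at least 17.6-fold) and *Stfa3*, a cathepsin inhibitor of the stefin family (a log2 bound of 3.71), and on the other side *Syt10* (at least 51.6-fold lower), *A230059G12Rik* (at least 50.8-fold), *Fads6* (at least 23.5-fold), *Gm9867* (at least 11.7-fold) and *Pltp*. On the LPS array *A230059G12Rik*, *Fads6* and *Gm9867* each had 4 uneven spots among their 20 nearest and *Pltp* had 3, just under the limit of 5, while *Syt10* had 0. On the CRL1506 + LPS array *Gm12132* had 4, *Ankrd35* 3 and *Ccdc68* 2. The weakest log2 values of the bounds over the normalizations ran from 2.06 (*Stfa3*) to 4.05 (*Ankrd35*) on the higher side and from -4.15 (*A230059G12Rik*) to -2.09 (*Pltp*) on the lower. The mean over probes is not among these normalizations. It gave only -1.1 for *Fads6*, 2.42 for *4930512B01Rik*, 2.79 for *Ccdc68* and 3.27 for *Ankrd35*. For *Gm12132*, *A230059G12Rik*, *Gm9867* and *Pltp* it lay further from 0 than the bound.

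**Figure D4:**
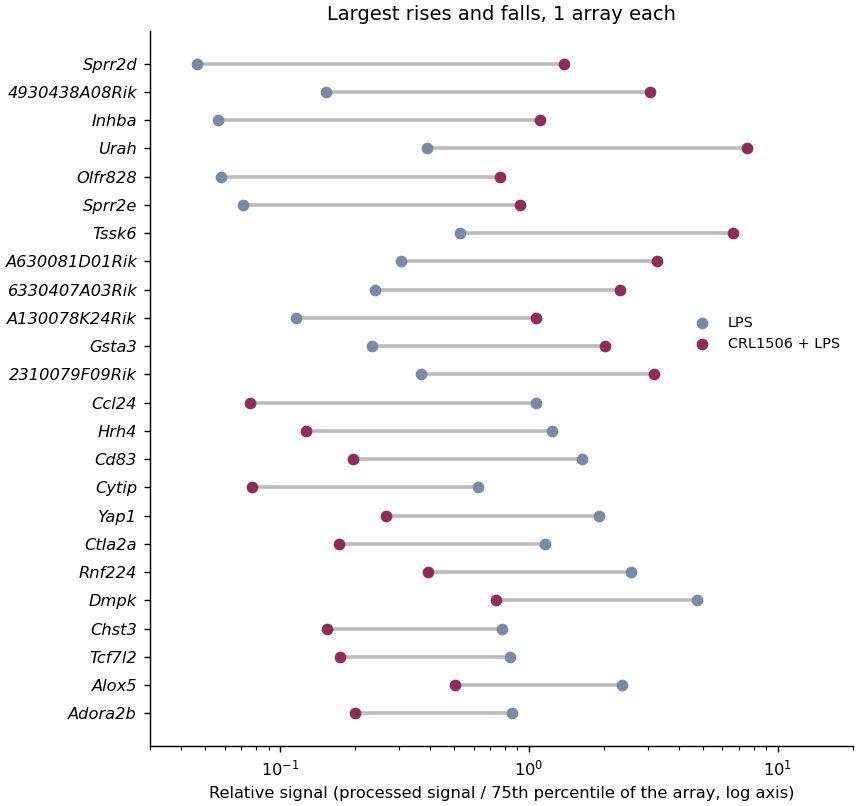
Relative signal (log axis) of the 12 largest rises and the 12 largest falls for LPS (grey-blue) and CRL1506 + LPS (dark red), 1 array each, joined by a line. *Sprr2d* goes from 0.0464 to 1.38 and *Ccl24* from 1.07 to 0.0755, and all 12 rises start at 0.527 or less on the LPS array.

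Genes with several probes gave a further view of how firm such values are. Among higher genes well above background on both arrays, 131 had another probe well above background on both. In 65.6% of these all other such probes lay on the same side of 0, while in 20.6% all were past 2-fold. Among lower genes the shares were 73.5% and 27.7% of 83, and 82.6% and 31.9% of the 69 with even spots. A single-probe value past 2-fold was thus shared in full by the other probes in fewer than 1 in 3 genes of either direction.

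The share of changed features differed between classes of transcript. Of 13909 protein-coding genes compared, 4.0% were higher and 3.14% lower, and of 1323 lncRNA genes 10.7% were higher and 6.80% lower. The 819 genes compared that matched no RefSeq biotype had a larger share, with 24.3% higher and 5.13% lower, or 24.7% and 2.37% with uneven spots left out. With uneven spots left out the lncRNA genes had 8.47% higher and 1.91% lower, against 3.09% and 1.82% of protein-coding genes, so that the excess stayed on the higher side but not on the lower. Among genes well above background on both arrays the shares were 9.03% and 3.01% for lncRNA genes and 2.83% and 2.02% for protein-coding genes. The deposited table gave smaller shares, 3.93% and 2.27% for lncRNA genes and 1.91% and 1.69% for protein-coding genes. RIKEN clones and predicted genes named Gm had 334 higher and 125 lower of 2366 (14.1% and 5.28%), or 259 and 38 of 2032 with uneven spots left out. Features with no symbol showed the same lean, with 253 higher and 68 lower of 2127 named only by a genomic region, and 355 and 74 of 2607 named only by an accession. Of 1415 olfactory, vomeronasal and taste receptors, which macrophages are not known to use as a class, 245 were compared and 22 were higher and 27 lower, falling to 9 and 7 of 175 with uneven spots left out. Most receptors of this class were thus not well above background on either array, and 70 of the 245 compared were lost with the uneven spots.

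**Figure D5:**
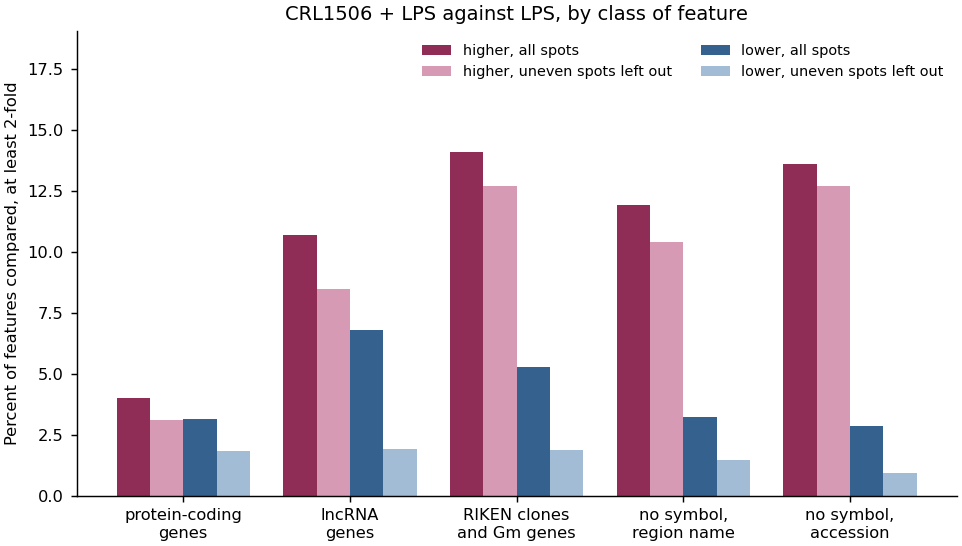
Percent of features compared that were at least 2-fold higher (red) or lower (blue) in CRL1506 + LPS, by class, with all spots (dark bars) and with uneven spots left out (light bars). Protein-coding genes stand at 4.0% higher and 3.14% lower, the other classes shown at 10.7% to 14.1% higher, and in each class the bar for lower features shrinks by the larger proportion when uneven spots are left out. Genes that matched no RefSeq biotype are not shown as a class of their own.

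The CRL1505 + LPS array, of cells given *L. rhamnosus* CRL1505 in the same way, came from a different slide and scan run, so strain and slide cannot be told apart, and its ratios use the same LPS array. Its values are therefore only set side by side. The median log2 ratio of the antiviral effectors was 0.56 for CRL1506 and 1.73 for CRL1505, of the guanylate-binding list 0.52 and 2.15, of the interleukins -0.08 and 0.89, of the chemokines 0 and 0.44, of mitosis genes -0.46 and -1.06, of DNA replication -0.24 and -1.15 and of clustered histones -0.69 and -1.55. For single genes, *Ifnb1* had 2.31 and 3.46, *Il6* 2.35 and 4.25, *Csf3* 2.35 and 3.53, *Inhba* 4.30 and 4.99, *Fpr2* 2.57 and 2.77, *Alox5* -2.23 and -2.14 and *Cd83* -3.05 and -3.15. *Tnfrsf9* had -1.92 and 1.42, *Cxcl9* -1.27 and 1.16, and *Nos2* -0.70 and 3.40. *Cx3cr1* had -2.10 and a bound of -5.82, and *Cx3cl1* a bound of -1.52 and a value of 1.32. The difference between the strains was not tested.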

How the data were processed

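RNA of RAW macrophages was labelled with Cy3 and hybridised to 1 array each for LPS and CRL1506 + LPS, grouped by the sample titles. The authors deposited the spot intensity of Feature Extraction (12.0.3.1 in the files), in which the processed signal has local background and spatial trends removed but is not normalized between arrays. They also deposited a table of log2 values normalized between arrays, used here as an alternative only; its rows were matched to spots by feature number.

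Here each array's log2 processed signals, of 59305 gene spots, were set relative to their 75th percentile. Spots carrying an outlier mark were dropped (467 on the LPS array, 274 on CRL1506 + LPS), no gene spot was saturated, and repeated spots were averaged. A gene was represented by its brightest probe over the arrays of the series, and a probe with an outlier spot only where there was no other. Of gene spots, 54.5% (LPS) and 55.3% (CRL1506 + LPS) were well above background. The number of arrays limits the precision, and the t-test of the methods needs replicates and was not run.

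The genes, lists and rules were chosen with earlier results of these data known. The named genes were the 12 largest rises and falls and the 5 largest bounds in each direction under the conditions given in the text. In each list they were every member past 2-fold where there were 6 or fewer, otherwise the largest, and the members that define the pathway. Other settings were shifts by the median, by probes detected on both arrays or by spike-in probes, quantile, cyclic loess and normexp (offset 50) normalization, the deposited table, other filters on dim, uneven or outlier spots, the mean over probes, and thresholds of 1.5-fold and 4-fold. R 4.3.3 with limma 3.58.1, and NumPy 2.4.6, pandas 2.3.3 and matplotlib 3.10.9 under Python 3.11.15, were used. The calculation was also tested on a copy of the LPS array with the noise of repeated spots and known changes added. That copy added no variation between cultures or probes, no uneven spots and no genes lost to background, so it says nothing about these. Probe positions are those of the files (mm9). Promoters are from RefSeq (GRCm38.p6), which held one for 11985 of the 16305 genes compared. Some members of the lists are not reported here.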

Additional observations from a re-analysis of the deposited data

Results flagged for a closer look

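For 8 of the 255 genes named in the text the strains gave changes past 2-fold in opposite directions against the same LPS array. Many of the 255 were named for a large CRL1506 ratio. The same share over all genes is not given here, so 8 cannot be called many or few. *Hrh4* had log2 ratios of -3.29 after CRL1506 and 2.47 after CRL1505, *Yap1* of -2.83 and 2.28, *Rnf224* of -2.70 and 2.29, *Tnfrsf9* of -1.92 and 1.42, and *Cxcl9* of -1.27 and 1.16. *Cx3cl1* had a bound of -1.52 and a value of 1.32. *Il1b* (-1.04 and 1.07) and *Ackr4* (2.77 and a bound of -1.98) had uneven spots. With 1 array for each strain the difference was not tested, and the strains lay on different slides.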

How the results depend on the processing

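The number of higher genes (923) stayed within 1.5 times of itself under all scalings by shift, quantile normalization, cyclic loess, removal of uneven spots, keeping of outlier spots and the mean over probes (670 to 1217). It was 454 after normexp, 412 in the deposited table and 2064 with no filter on dim probes. With only genes well above background on both arrays it was 592, at 1.5-fold 1900 and at 4-fold 212. The number of lower genes (575) was 872 with arrays shifted by their medians, 282 after normexp, 286 in the deposited table and 1330 with no filter. It was 302 with only genes well above background on both arrays and 278 with uneven spots left out. At 1.5-fold it was 1499 and at 4-fold 142. The offset of normexp pulls dim signals together and the filters change which genes are compared, and for the other settings the cause was not tested. The shift by medians moved the median log2 ratio of all genes to -0.26, and the spike-in shift to -0.17.

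Of 187 named genes past 2-fold, 5 changed sign in some setting and 84 were under 2-fold in some normalization. *Cd55* (-1.72 as reported) had 0.63 with uneven spots left out and 0.17 as the mean over probes, *Il1r2* 0.73 and *Klrk1* -0.00 with uneven spots left out, and *Itga4* 0.29 and *Itga6* -0.08 as the mean over probes. No paired analysis was possible because each group had 1 array. No sample could be left out for the same reason. Dim genes are limited by background, so their ratios are bounds or shrink under normexp.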

Other observations

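Of 61 genes of the actin cytoskeleton 2 were lower, *Gsn* (gelsolin), which severs actin filaments and fell 2.16-fold from 23.2 to 10.7, and *Rac3* (-1.0, weakest -0.86 over the normalizations), and 50 of the 61 lay below 0 with a median of -0.26. Of 39 genes of fatty acid synthesis and oxidation, *Cpt1a*, the gate of mitochondrial fatty acid oxidation, had -1.10 (from 1.66 to 0.77, weakest -0.99), and the elongase *Elovl6* was at least 5.53-fold higher (weakest log2 ratio 1.19). Of 28 growth factor genes, *Pdgfb* had -1.20 (from 80.4 to 35.0, and -0.43 at its other probe), and *Met*, the receptor of HGF, was at least 2.98-fold higher (weakest log2 ratio 0.81).

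Among phagocytic receptors, *Clec7a* (dectin-1), which binds fungal beta-glucan, fell 2.90-fold from 1.04 to 0.359, with -0.46 at its other probe, *Gas6*, a bridging ligand for the uptake of dying cells, had -1.40, *Mgl2* had -1.34, and *Marco*, a scavenger receptor for bacteria, rose from 83.0 to 167 (1.01, weakest 0.81). In the complement list *Cd93* had -1.68, while *C3* (0.30) and *C1qa* (-0.77, uneven) stayed within 2-fold. Of 46 TRIM ligases, *Trim12c* had 1.32, *Trim30a* 1.17 (weakest 0.97) and *Trim47* -1.10.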
